A study of Mus musculus with 9 samples.

Results

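Krt8 and Krt18, which encode the keratin pair of the hepatocyte, and 8 genes for alpha- and beta-tubulin were followed in mouse liver. The genes were chosen by symbol: Krt8, Krt18, Tuba1a, Tuba1b, Tuba1c, Tubb2a, Tubb2b, Tubb4b, Tubb5 and Tubb6. They are 10 of the 24411 genes in the deposited table, and all 10 passed the filter on low counts. Tubb2b passed it through its counts in the Atg7-KO libraries, so it was bound to be high there, and it is given by its counts and enters no count of genes called. For the same reason, genes of the related lists that reached the minimum of the filter in no cont. library are left out of the counts of called genes, a choice made after seeing the data. Genes that met it in 1 or 2 cont. libraries could not pass through cont. alone, and they stay in the counts. Among those named with a call, Tuba1a, Tuba8, Stmn1 and Ezr met it in 1 cont. library, and Map1b and Ptprc in 2. Their calls are not independent of the filter. Poly(A) RNA was sequenced from 9 livers of 3-month-old mice on a C57BL/6 background, 3 livers in each of 3 groups. All mice carried floxed Atg7 on both copies. The cont. mice had no Cre recombinase, and the Atg7-KO mice had the Alb-Cre transgene, in which the albumin promoter drives recombination in hepatocytes and Atg7 stays in the other cells of the liver. The third group, called S351A here, had Alb-Cre and a p62 allele on both copies in which serine was exchanged for alanine, a change that weakens the binding of p62 to KEAP1. The titles of all 3 S351A libraries name S351A, while the genotype entries of replicates 2 and 3 name S352A and S353A for 1 copy. The allele cannot be read from counts, so the name rests on the titles.

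Keratin 8 is a type II and keratin 18 a type I keratin, and the filaments of hepatocytes are built from this obligate pair without any other keratin. In several liver diseases the pair accumulates with ubiquitin and p62 in cytoplasmic inclusions known as Mallory-Denk bodies, and p62 is itself a cargo of autophagy, the pathway that ATG7 serves. Microtubules are polymers of alpha- and beta-tubulin dimers. Each of the tubulins is encoded by several genes whose products, the isotypes, differ mostly at the C-terminal tail, and cells lower their tubulin mRNAs when free dimers accumulate.

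The near identity of the tubulin genes decides how well their reads can be told apart, and it was measured on mm10 with the GENCODE M21 annotation. Over the whole coding sequence, 98.3% of bases were identical between Tuba1a and Tuba1b, 97.55% between Tuba1a and Tuba1c, and 98.37% between Tuba1b and Tuba1c. Tubb2a and Tubb2b share 96.48% of their coding bases. They are shown over coding bases 64 to 123, in exon 2, where capitals mark the 8 positions at which they differ.
Tubb2a (chr13:34076592-34076651, minus strand): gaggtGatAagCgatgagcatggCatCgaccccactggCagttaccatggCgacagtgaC
Tubb2b (chr13:34129289-34129348, minus strand): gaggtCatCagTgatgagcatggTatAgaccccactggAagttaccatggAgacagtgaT
Krt8 and Krt18 are far less alike, with 56.61% identity over their aligned coding bases.

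The reads were 75 bases long, and every window of 75 bases in the longest transcript of each gene was looked up in the other transcripts of the annotation. Windows shared with another gene of the table made up 49.68% of Tuba1a, 61.65% of Tuba1b, 56.66% of Tuba1c, 43.23% of Tubb2a, 32.16% of Tubb2b and 3.084% of Tubb4b. Krt8, Krt18, Tubb5 and Tubb6 shared none with another gene of the table. Pseudogenes with no entry in the table also hold windows, namely 21.97% of those of Krt8 in Krt8-ps, 33.73% of those of Tubb4b in Tubb4b-ps1 and 44.34% of those of Tuba1b in AC157548.1. For Tuba1b most of these were already shared within the table, since its share with any annotated gene was 78.31%. The counts carry the trace of this sharing. A count that was not a whole number, the mark of reads divided between genes, occurred in 9 of 9 libraries for Tuba1a, Tuba1b and Tuba1c, in 8 for Tubb2a and Tubb2b, in 3 for Tubb4b and in 0 for the remaining 4 genes. The Tubb2a and Tubb2b counts summed to a whole number in 9 of 9 libraries, to within 0.05. So did the sum of Tubb4b and Fam166a, a gene that overlaps it on the opposite strand. The Tuba1a, Tuba1b and Tuba1c counts summed to a whole number in 4 libraries, and in 9 of 9 once the pseudogene Gm6682 and Slc7a11 were added. Slc7a11, which encodes the cystine transporter, has an annotated transcript that shares 47 windows with Tuba1b and 38 with Tuba1a. Its level was 0.263 ± 0.381 CPM (counts scaled to a common library total) in cont. livers, 164 ± 53.5 in Atg7-KO livers and 46.1 ± 61.9 in those of S351A (SD, n = 3). Its part in the alpha-tubulin values was not tested. The fold changes of the 3 alpha-tubulin genes and of Tubb2a and Tubb2b therefore rest on divided reads, while those of Krt8, Krt18, Tubb5 and Tubb6 do not.

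**Figure D1:**
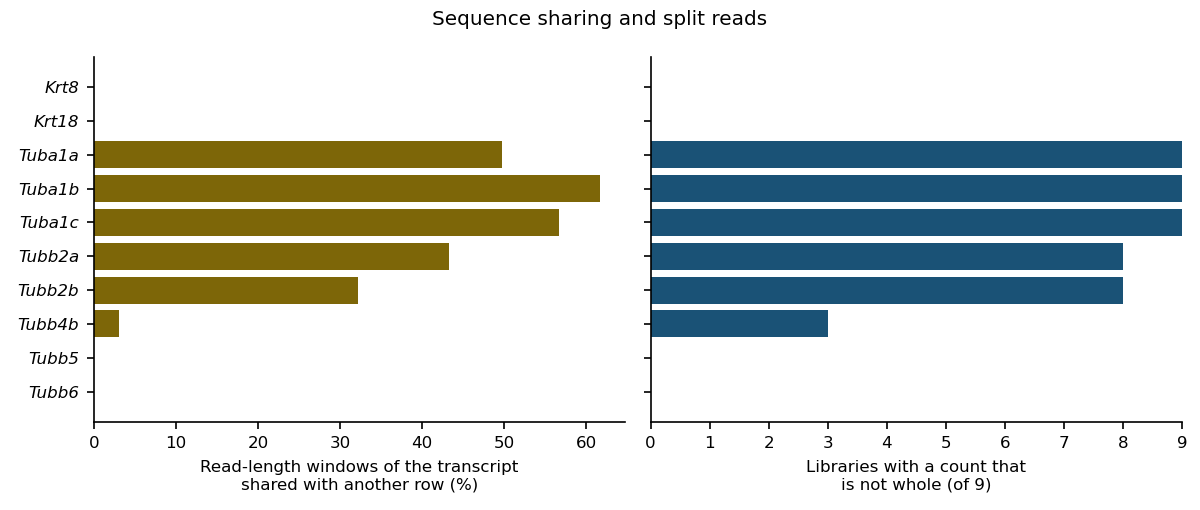
Share of the 75-base windows of each gene's longest transcript that occur in another gene of the table (left, %) and number of the 9 libraries in which its deposited count was not whole (right). The genes with shared windows are those with counts that are not whole, and Krt8, Krt18, Tubb5 and Tubb6 stand at 0 on both axes.

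In mm10, Krt8 occupies bases 101996698 to 102004482 of chromosome 15 on the minus strand, and Krt18 lies from 102028180 to 102032027 on the plus strand. The pair is separated by 23697 bases with 0 annotated genes between them. On the same chromosome, Tuba1b lies from 98931425 to 98934565 and Tuba1a from 98949837 to 98953703 on the minus strand, and Tuba1c from 99029891 to 99038110 on the plus strand. Tubb2a (34074274 to 34078007) and Tubb2b (34126748 to 34130466) lie on the minus strand of chromosome 13, separated by 48740 bases with 3 annotated genes between them. Tubb4b lies on chromosome 2 from 25222160 to 25224702 and Tubb5 on chromosome 17 from 35833921 to 35838306, both on the minus strand. Tubb6 lies on chromosome 18 from 67390717 to 67402749 on the plus strand.

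Library totals were 1875314 to 15426566 counts in cont. livers, 1945469 to 3675041 in Atg7-KO livers and 713835 to 792366 in those of S351A. Each S351A library was smaller than each of the others, so depth and the p62 allele cannot be told apart. Levels are given as CPM on the TMM scale, a scaling in which most genes are taken not to differ between libraries. A count of 3 in a library, taken as its floor, was worth 0.267 to 3.70 CPM. Atg7, the targeted gene, stood at 44.8, 57.3 and 42.1 CPM in cont., 29.9, 27.8 and 28.2 in Atg7-KO and 21.7, 24.7 and 22.1 in S351A, below every cont. library in both Cre groups. By Xist and Y-linked genes, 1 of the 3 cont. livers was female, against 2 of 3 in Atg7-KO and 2 of 3 in S351A, and sex as a covariate changed no call of a member. Nothing in the labels links a replicate number to a shared animal or day, and the p-values measure the spread between these livers.

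Per kilobase of exon, Krt18 was the most abundant of the 10 mRNAs in each group, at 352 ± 79.2 CPM per kilobase in cont. livers, 511 ± 17.1 in Atg7-KO livers and 396 ± 81.5 in those of S351A (SD, n = 3). Its libraries did not overlap those of the next gene in any group. Krt8 came next, at 112 ± 38.6, 227 ± 29.0 and 147 ± 32.4 CPM per kilobase, and Tubb2a followed at 105 ± 31.9, 122 ± 5.74 and 97.8 ± 25.6. Krt8 and Tubb2a overlapped in cont. and in S351A and were separate in Atg7-KO. Tubb5 was the seventh of the 10 in cont. at 20.4 ± 4.68 CPM per kilobase and the fourth in Atg7-KO at 55.5 ± 2.52 and in S351A at 39.4 ± 8.06, where it overlapped Tubb4b. The tubulins with the lowest levels per kilobase were Tubb6, Tuba1a and Tubb2b in all 3 groups.

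**Figure D2:**
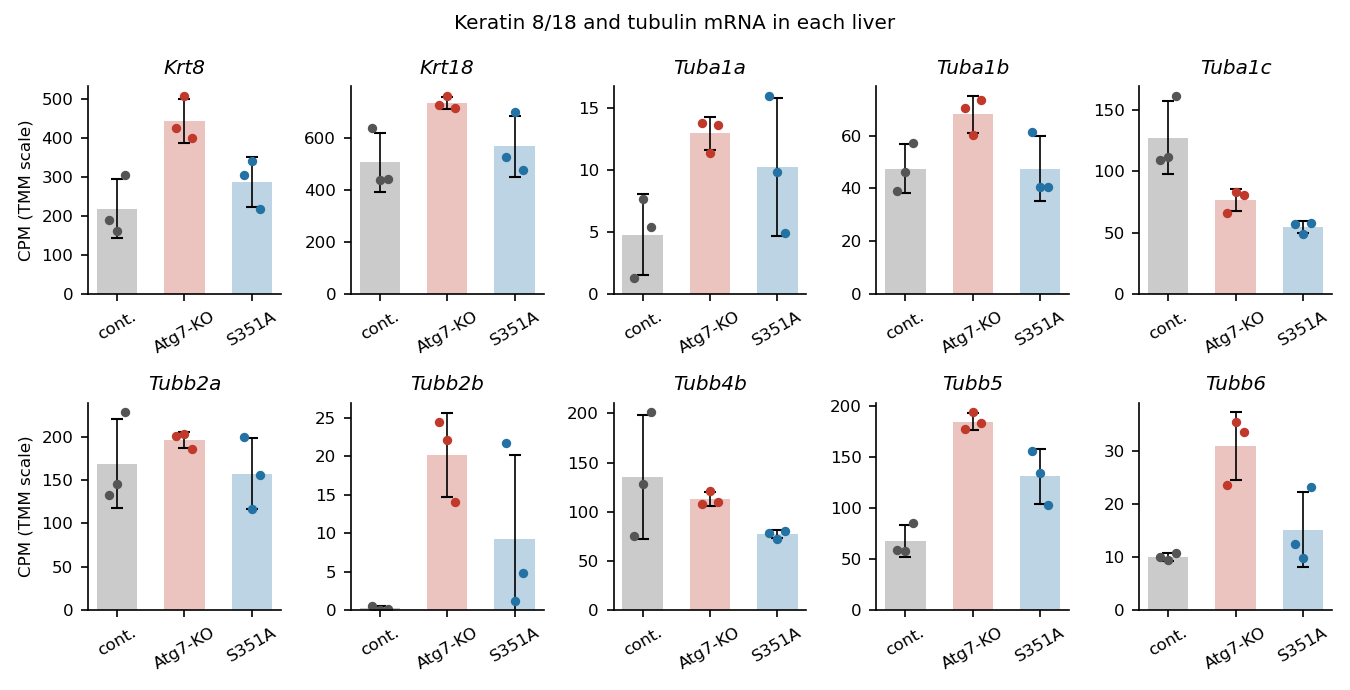
Level of each of the 10 genes in each liver, in CPM on the TMM scale (points), with the group mean (bar) and SD (line, drawn from 0 upward), 3 livers per group. In Atg7-KO, Krt8, Tubb5 and Tubb6 lie above all cont. livers and Tuba1c lies below them, and the S351A livers lie between the other groups for Krt8 and Tubb5 by their means.

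Loss of Atg7 in hepatocytes was examined first, as Atg7-KO against cont. Of the 9 genes other than Tubb2b, 4 were higher in Atg7-KO and 1 was lower, with a call at an edgeR adjusted p under 0.05 and a fold change above 1.5. Over all 11199 genes tested, 19.9% were called higher and 18.1% lower. Krt8, Tuba1a, Tubb5 and Tubb6 were the genes that rose, and Tuba1c was the gene that fell. Tuba1a met the minimum of the filter in 1 cont. library and in all 3 of Atg7-KO, so its call is not independent of the filter. The median log2 fold change of the 9 genes was 0.54, against -0.03 over all genes. In 6 of the 9 every Atg7-KO library lay above every cont. library, as for 26.7% of all genes, and in 1 every one lay below, as for 24.9%.

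Krt8 stood at 189, 162 and 304 CPM in the cont. livers and at 425, 507 and 398 CPM in the Atg7-KO livers. The groups did not overlap, and the highest cont. value came from replicate 3, the library with most counts. Krt8 rose 2.03-fold (log2 fold change 1.02, SE 0.28, edgeR adjusted p = 0.0112). Without Atg7-KO replicate 2 the call was lost, at a log2 fold change of 0.91 and an adjusted p of 0.0538. Adjusted p values for Krt8 over all alternatives ran from 4.08e-04 to 0.0538.

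Krt18 stood at 638, 439 and 442 CPM in cont. and at 728, 761 and 713 CPM in Atg7-KO. Every Atg7-KO liver was again above every cont. liver, though by less than for Krt8. The log2 fold change of Krt18 was 0.54 (SE 0.24, 95% interval 0.01 to 1.06, edgeR adjusted p = 0.0965), which did not pass. It passed in 4 alternatives, at 0.72 without cont. replicate 1 (adjusted p = 0.0310), at 0.62 with at least 10 counts required in every library (adjusted p = 0.0489), at 1.05 with total library size (adjusted p = 0.00477) and at 0.96 with library size less the 20 genes with most counts (adjusted p = 0.00736). The Krt18 to Krt8 ratio of CPM, which no scaling between libraries affects, was 3.37, 2.72 and 1.45 in cont. and 1.71, 1.5 and 1.79 in Atg7-KO. The Atg7-KO ratios fell inside the cont. range, so a change in the balance of the pair was not separable from the spread of the cont. livers. Summed, the pair amounted to 725 ± 115 CPM in cont. livers, 1177 ± 81.3 in Atg7-KO livers and 855 ± 175 in those of S351A (SD, n = 3).

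Keratin 8 and keratin 18 are also made by cells of the bile ducts, whose markers had a higher summed level in both Cre groups. Of the 9 ductular markers 7 were tested, but Krt7, Krt19, Epcam and Cftr passed the filter through the Cre groups, so no count of calls is given. The summed level of the 9 went from 74.5 to 124 CPM in cont. to 874 to 1274 CPM in Atg7-KO and 787 to 1274 CPM in S351A. Most of the Atg7-KO sum came from Spp1 (34.8 CPM on average in cont., 728 in Atg7-KO) and Sox9 (30.7 and 228). Krt7, Krt19, Epcam and Cftr averaged 6.38, 12.5, 10.1 and 7.64 CPM in Atg7-KO. The 8 hepatocyte markers were all called lower in Atg7-KO against cont., as were 18.1% of all genes. Their sums were 48914 to 110485 CPM in cont. and 30568 to 37802 CPM in Atg7-KO, and none was at 0 in any group. The part of these cells in the keratin values was not tested. In bulk liver, a change in the number of cells of a type and a change in the RNA per cell cannot be told apart.

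Among the 3 alpha-tubulin genes followed here, Tuba1c fell and Tuba1a rose in Atg7-KO, and Tuba1b did not pass the test. Tuba1c, the most abundant of them per kilobase in cont., stood at 109, 112 and 162 CPM there and at 66.1, 83.4 and 80.4 CPM in Atg7-KO. Every Atg7-KO liver was below every cont. liver. Tuba1c fell by 0.74 on the log2 scale (SE 0.21, edgeR adjusted p = 0.0142). The call did not hold without cont. replicate 3, where the log2 fold change was -0.53, under the fold limit, or without Atg7-KO replicate 1, where it was -0.64 with an adjusted p of 0.0792. Nor did it hold with total library size, at -0.20 and an adjusted p of 0.431, or without the 20 genes with most counts, at -0.31 and an adjusted p of 0.233.

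Tuba1b stood at 39.2, 46.15 and 57.4 CPM in cont. and at 70.5, 60.2 and 73.6 CPM in Atg7-KO. The groups did not overlap, and the log2 fold change was 0.50 (SE 0.21, 95% interval 0.03 to 0.97, edgeR adjusted p = 0.0845), which did not pass. Tuba1b passed in 3 alternatives, at 0.66 without cont. replicate 3 (adjusted p = 0.0368), at 1.05 with total library size (adjusted p = 0.00161) and at 0.94 without the 20 genes with most counts (adjusted p = 0.00387). Tuba1a, the isotype best known from developing neurons, had 2, 22 and 61 counts in cont., or 1.26, 7.69 and 5.43 CPM, and 13.8, 11.4 and 13.6 CPM in Atg7-KO. Its lowest Atg7-KO liver lay above its highest cont. liver, and cont. replicate 1 was at the floor. Tuba1a rose by 1.31 on the log2 scale (SE 0.43, edgeR adjusted p = 0.0289), and the call was lost without cont. replicate 3 or without any of the 3 Atg7-KO libraries, with adjusted p values of 0.0581 to 0.0937. The gene met the minimum of the filter in 1 cont. library and passed through the Cre groups, so its adjusted p is not independent of the filter.

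The make-up of the 3 followed alpha-tubulin genes, as shares of their summed CPM not corrected for length, gives the same values without any scaling between libraries. Tuba4a, at 230.1 ± 72.6 CPM in cont. and 74.95 ± 1.36 in Atg7-KO (SD, n = 3), and Tuba8 are not in these sums. Tuba1c took 73.0%, 67.4% and 72.0% of the summed Tuba1a, Tuba1b and Tuba1c level in cont. and 44.0%, 53.8% and 48.0% in Atg7-KO. Tuba1b took 26.2%, 27.9% and 25.6% in cont. and 46.9%, 38.9% and 43.9% in Atg7-KO. Neither gene's shares overlapped between the groups. The S351A livers were at 42.4%, 49.4% and 56.0% for Tuba1c and 45.8%, 40.7% and 39.3% for Tuba1b, outside the cont. range and beside Atg7-KO. The sum of the 3 genes was 180 ± 39.4 CPM in cont. livers, 158 ± 8.92 in Atg7-KO livers and 112 ± 19.2 in those of S351A (SD, n = 3), so the Atg7-KO sum lay within the spread of cont.

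**Figure D3:**
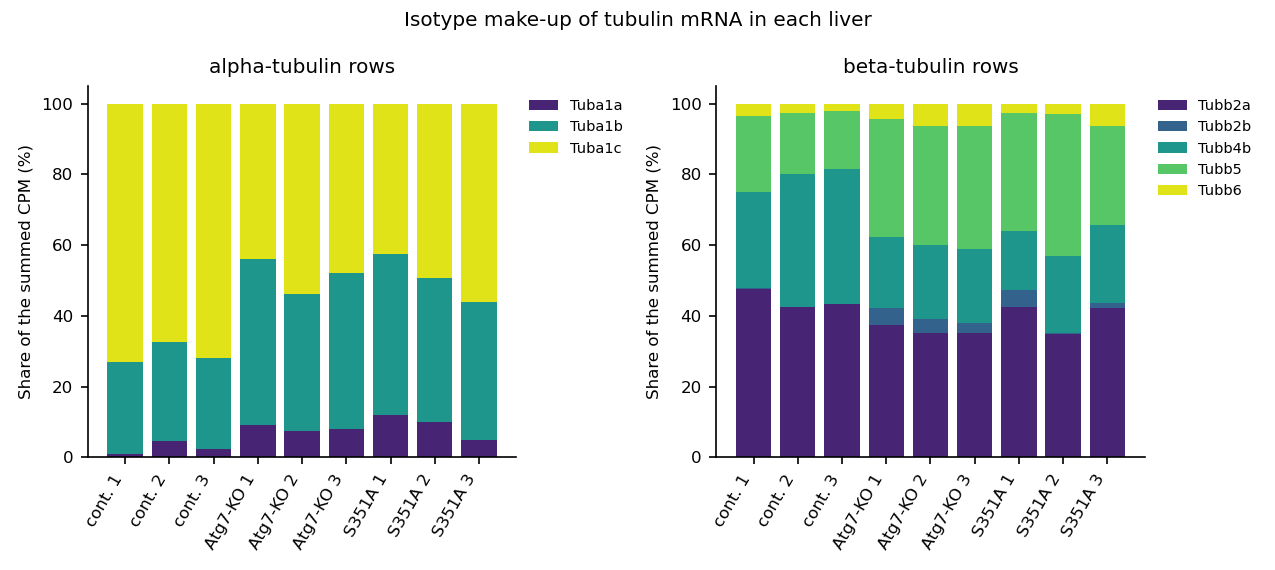
Share of each followed alpha-tubulin (left) and beta-tubulin (right) gene in the summed CPM of the followed genes of its family (%), in each of the 9 livers. Tuba4a and Tuba8 are not in the sums. Tuba1c makes up 67.4% to 73.0% of the alpha bars in cont. and 42.4% to 56.0% in the other livers, and Tubb5 makes up 16.3% to 21.3% of the beta bars in cont. and 28.0% to 40.1% in the others.

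Of the beta-tubulin genes, Tubb5 and Tubb6 rose in Atg7-KO, no difference was called for Tubb2a and Tubb4b, and Tubb2b was at or near 0 counts in cont. Tubb5, the widely expressed class I isotype, stood at 59.4, 58.4 and 85.8 CPM in cont. and at 177, 194 and 183 CPM in Atg7-KO. The lowest Atg7-KO liver was above the highest cont. liver by a wide margin. Tubb5 rose 2.70-fold (log2 fold change 1.43, SE 0.23, edgeR adjusted p = 4.47e-04), and its adjusted p stayed between 9.90e-09 and 0.00314 over all alternatives.

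Tubb6, the class V isotype, stood at 10.1, 9.44 and 10.9 CPM in cont. and at 23.7, 35.6 and 33.6 CPM in Atg7-KO. The cont. livers were close together and all Atg7-KO livers lay above them. Tubb6 rose 2.99-fold (log2 fold change 1.58, SE 0.28, edgeR adjusted p = 8.22e-04), with adjusted p values of 1.10e-05 to 0.00650 over the alternatives that gave a value.

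Tubb2b, an isotype best known from the developing brain, had 1, 0 and 2 counts in the cont. libraries and 106, 62 and 31 in the Atg7-KO libraries. The Atg7-KO levels were 24.4, 22.1 and 14.1 CPM, while each cont. library was below its floor. From the pooled counts of 199 and 3, the ratio of Atg7-KO to cont. was 111, with a 95% counting interval of 37.5 to 544 that covers counting error only. No test is given, since the same Atg7-KO counts brought the gene through the filter. The reads of Tubb2b were divided with those of Tubb2a, whose sum with Tubb2b was 169 ± 51.2 CPM in cont. and 217 ± 14.5 in Atg7-KO (SD, n = 3).

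Tubb2a stood at 133, 146 and 228 CPM in cont. and at 201, 203 and 186 CPM in Atg7-KO, inside the cont. range (log2 fold change 0.21, 95% interval -0.34 to 0.77, edgeR adjusted p = 0.548). Tubb4b stood at 75.8, 129 and 201 CPM in cont. and at 108, 122 and 109.9 CPM in Atg7-KO (log2 fold change -0.27, 95% interval -0.89 to 0.35, edgeR adjusted p = 0.491). For both genes the cont. livers spread more widely than the groups differed, with replicate 3 the highest. As a share of the summed CPM of the 5 followed beta-tubulin genes, Tubb5 went from 18.2% ± 2.67 in cont. to 33.9% ± 0.812 in Atg7-KO, and Tubb4b from 34.3% ± 6.22 to 20.7% ± 0.437 (SD, n = 3). The summed level of the 5 genes was 382 ± 128 CPM in cont. livers, 546 ± 26.6 in Atg7-KO livers and 391 ± 69.6 in those of S351A.

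All these fold changes depend on how the libraries are scaled, and the 20 genes with most counts took 19.0% to 24.2% of the cont. libraries and 14.7% to 16.6% of the others. With total library size in place of TMM, the median over all genes of the log2 fold change in Atg7-KO against cont. moved from -0.03 to 0.51, 4284 genes were called higher and 801 lower in place of 2226 and 2028, and of the 9 genes other than Tubb2b 7 were called higher, against 38.3% of all genes, and 0 lower, against 7.15%. Tuba1c was then at -0.20 and Tubb4b, with a turned sign, at 0.30. Relative to the median of all genes, Tuba1c was at -0.71 under both scalings, Krt8 at 1.05 under TMM and 1.06 under total library size, and Tubb5 at 1.47 under both.

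**Figure D4:**
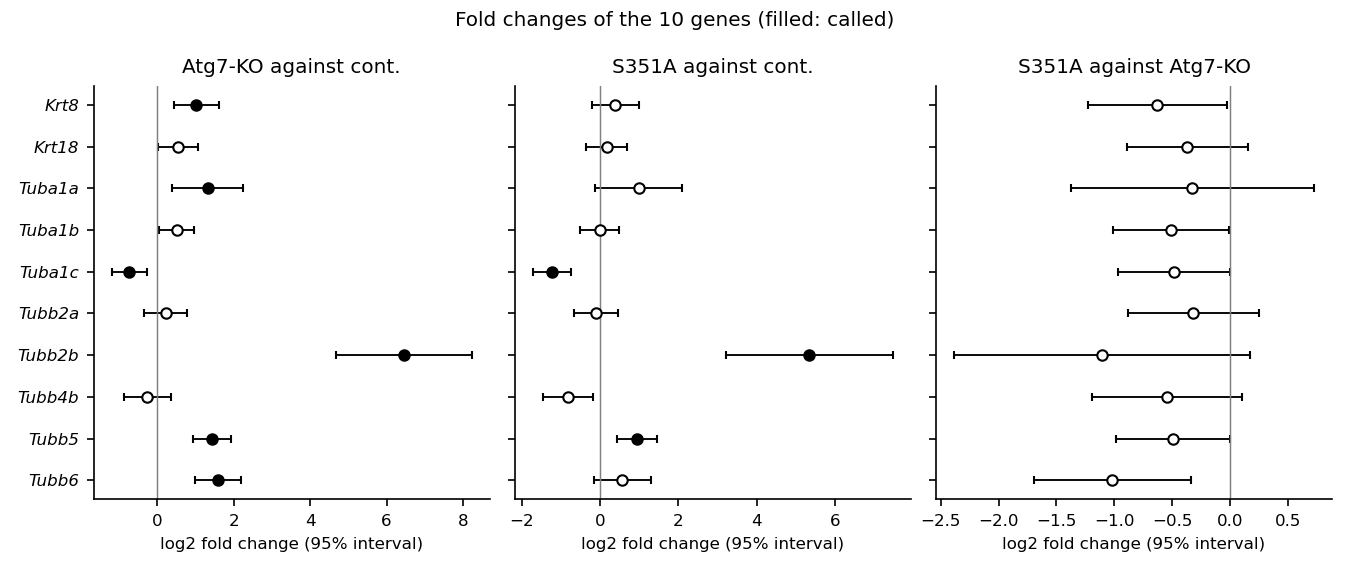
Log2 fold change of each gene in the 3 comparisons (points) with its 95% interval (lines), from 3 livers per group. Filled points were called at an edgeR adjusted p under 0.05 and a fold above 1.5. The Tubb2b values against cont., drawn as filled, are fitted to cont. counts of 3 or fewer, and no Tubb2b point or interval is taken as a test. The 9 points other than Tubb2b lie below 0 in S351A against Atg7-KO, where none was called.

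The p62 allele was then examined within Atg7-deficient liver, as S351A against Atg7-KO. None of the 9 genes other than Tubb2b was called, against 0.00893% of all genes, which is 1 gene. DESeq2 and limma-voom also called 0 of the 9. At an unadjusted p under 0.05 in edgeR, 3 of the 9 genes were lower in S351A, as were 3.22% of all genes: Krt8, Tuba1b and Tubb6. All 9 log2 fold changes were below 0, with a median of -0.49 against 0.01 over all genes, of which 48.8% were below 0. They were below 0 in all 177 values that the alternatives gave for this comparison. In 6 of the 9 genes, every S351A liver lay below every Atg7-KO liver, as for 9.23% of all genes. These were Krt8, Krt18, Tuba1c, Tubb4b, Tubb5 and Tubb6.

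Krt8 stood at 303, 340 and 217 CPM in S351A, below the lowest Atg7-KO liver at 398 CPM. Its log2 fold change against Atg7-KO was -0.63 (95% interval -1.23 to -0.03, edgeR adjusted p = 0.754). Krt18 stood at 528, 700.3 and 477 CPM, also below all Atg7-KO livers, with a log2 fold change of -0.37 (95% interval -0.89 to 0.15, edgeR adjusted p = 0.849). Tubb6 stood at 12.5, 9.86 and 23.3 CPM in S351A, and its highest liver was just under the lowest Atg7-KO liver at 23.7 CPM. The log2 fold change of Tubb6 was -1.02 (95% interval -1.70 to -0.34), with an edgeR adjusted p of 0.589, and its counts in S351A were 11, 8 and 19.

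Tubb5 stood at 156, 134 and 103 CPM in S351A, below the Atg7-KO livers and above the cont. livers. Against Atg7-KO its log2 fold change was -0.49 (95% interval -0.99 to 0.0016, edgeR adjusted p = 0.754). Tuba1c was lowest in S351A, at 57.0, 49.3 and 57.6 CPM, with -0.49 against Atg7-KO (95% interval -0.97 to 0.0016, edgeR adjusted p = 0.754). Tubb4b was at 78.7, 72.7 and 80.9 CPM, with -0.55 (95% interval -1.20 to 0.10, edgeR adjusted p = 0.834). The 3 S351A livers were close together for Tuba1c and Tubb4b, whereas they ranged more widely for Tubb6.

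The other 4 genes overlapped between the Atg7-deficient groups. Tuba1b was at 61.6, 40.7 and 40.4 CPM in S351A and Tuba1a at 16.0, 9.86 and 4.90 CPM, the latter from 14, 8 and 4 counts. Tubb2a was at 199.6, 117 and 156 CPM. Tubb2b was at 21.7, 1.23 and 4.90 CPM, and 19 of its 24 counts came from S351A replicate 1. No test is given for it against Atg7-KO, whose counts brought it through the filter.

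Between S351A and cont., a comparison that shares its libraries with both others, 1 of the 9 genes other than Tubb2b was called higher, Tubb5, and 1 was called lower, Tuba1c. Over all genes, 15.6% were called higher and 13.0% lower. Tubb5 was 1.92-fold higher (log2 fold change 0.94, SE 0.23, edgeR adjusted p = 0.00956), and without S351A replicate 1 it was at 0.78 with an adjusted p of 0.0539. Tuba1c had a log2 fold change of -1.23 (SE 0.22, edgeR adjusted p = 0.00191), with adjusted p values of 3.42e-05 to 0.0175 over the alternatives. The pooled Tubb2b counts of 24 and 3 gave a ratio of 50.1 (95% counting interval 15.2 to 260.01). Without S351A replicate 1, an alternative chosen after seeing the data, the counts were 5 and 3 and the ratio 16.1 (95% counting interval 3.13 to 103). S351A replicate 2 had 1 Tubb2b count, below its floor, as cont. replicate 1 did. In Tubb5 all S351A livers were above all cont. livers, as for 19.6% of all genes, and in Tuba1c all were below, as for 18.4%.

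Neither keratin was called in S351A against cont. Krt8 had a log2 fold change of 0.39 (95% interval -0.21 to 0.99, edgeR adjusted p = 0.314) and Krt18 of 0.17 (95% interval -0.36 to 0.69, edgeR adjusted p = 0.644). Krt8 passed with total library size, at 0.88 and an adjusted p of 0.0183, and without the 20 genes with most counts, at 0.78 and an adjusted p of 0.0375. Tubb6 was at 0.56 (95% interval -0.16 to 1.29), ran from 0.11 to 1.41 over the alternatives, and passed with total library size at 1.07 (adjusted p = 0.0272) and without the 20 genes at 0.97 (adjusted p = 0.0429). Tuba1a was at 0.98 (95% interval -0.14 to 2.10) and passed with total library size at 1.49 (adjusted p = 0.0393). Tuba1b and Tubb2a were near 0, at -0.01 and -0.11. Tubb4b was at -0.82 with an edgeR adjusted p of 0.0579, and passed without cont. replicate 1 at -1.12 with an adjusted p of 0.00502. It also passed with DESeq2, the tool of the study, at -0.79 with an adjusted p of 0.0497, and with no filter on low counts at -0.93 with an adjusted p of 0.00922. Whether a gene called against cont. in Atg7-KO and not in S351A differs between them is given by the comparison of the Atg7-deficient groups above, in which none was called.

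The promoters of the genes that moved in opposite directions were read next, together with that of Tubb4b, which edgeR with the filter and all 9 libraries did not call against cont. in either comparison. RefSeq promoters of GRCm38.p6 were available for 8 of the 10 genes, all but Tubb2b and Tubb6. The stretches run from 250 bases before the RefSeq start to at most 30 bases after it. Capitals mark matches, on either strand, to 4 motifs. One is the TATA box, searched as TATAAA. Another is the box read by NF-Y, searched as CCAAT. The core of a GC box was searched as GGGCGG. The core of the element bound by NRF2, the factor that KEAP1 restrains, was searched as TGACNNNGC. No match of 1 motif overlaps a match of another in the stretches shown.
Tubb5 (chr17:35838277-35838551, minus strand): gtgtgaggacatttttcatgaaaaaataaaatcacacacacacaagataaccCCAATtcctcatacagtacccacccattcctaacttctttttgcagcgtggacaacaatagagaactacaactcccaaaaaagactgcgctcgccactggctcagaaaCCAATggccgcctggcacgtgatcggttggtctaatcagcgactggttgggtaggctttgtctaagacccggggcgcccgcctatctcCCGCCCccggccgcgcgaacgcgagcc
Tuba1c (chr15:99029641-99029920, plus strand): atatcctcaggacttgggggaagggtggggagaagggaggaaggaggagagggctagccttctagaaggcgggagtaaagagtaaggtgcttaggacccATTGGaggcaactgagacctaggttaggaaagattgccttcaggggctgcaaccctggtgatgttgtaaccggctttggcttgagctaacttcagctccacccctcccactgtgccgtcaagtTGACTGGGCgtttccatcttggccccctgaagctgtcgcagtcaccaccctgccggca
Tubb4b (chr2:25224673-25224952, minus strand): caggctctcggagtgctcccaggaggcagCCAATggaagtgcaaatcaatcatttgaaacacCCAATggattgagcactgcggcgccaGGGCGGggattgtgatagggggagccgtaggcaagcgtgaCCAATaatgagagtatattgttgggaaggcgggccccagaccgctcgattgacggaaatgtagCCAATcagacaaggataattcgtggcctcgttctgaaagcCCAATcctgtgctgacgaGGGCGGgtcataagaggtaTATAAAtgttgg
The Tubb4b stretch held 5 CCAAT matches, Tubb5 held 2, and Tuba1a and Tuba1c held 1 each, where 36.09% of 32851 promoters of the same length held any. TATAAA was found in Krt8, Tubb2a and Tubb4b and in 13.1% of all promoters. GGGCGG was found in Tuba1a, Tuba1b, Tubb2a, Tubb4b and Tubb5 and in 34.69% of all. TGACNNNGC was found in Tuba1a, which was higher in Atg7-KO, and in Tuba1c, which was lower, and in 11.49% of all promoters. For Krt8 and Tuba1a the RefSeq window reached into the gene as GENCODE annotates it. The TATAAA matches of Krt8 and the GGGCGG and TGACNNNGC matches of Tuba1a lay more than 30 bases past the GENCODE gene start. Krt18 held none of the 4 motifs. A match is a stretch of letters and not a measured binding site.

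Other genes of the cytoskeleton were read from lists. Their counts of calls in Atg7-KO against cont. stand beside 19.9% of all genes called higher and 18.1% called lower. Of 12 other tubulin genes, 3 were tested, and Tuba8 was called higher in Atg7-KO against cont. (log2 fold change 2.23, edgeR adjusted p = 0.00287) while Tuba4a (-1.62, adjusted p = 2.69e-04) and Tubg1, the gamma-tubulin of microtubule nucleation, (-0.77, adjusted p = 0.0128) were called lower. Tuba8 met the minimum of the filter in 1 cont. library, so its call is not independent of the filter. Tuba4a stood at 230.1 ± 72.6 CPM in cont., against 74.95 ± 1.36 in Atg7-KO and 64.5 ± 8.52 in S351A livers (SD, n = 3). Of the 20 tubulin folding genes, which cover chaperonin and prefoldin subunits and the tubulin cofactors, 2 were called higher and 1 lower, with a median of -0.08. The 2 were Pfdn1 (0.71) and Cct2 (0.62), and the cofactor Tbcb was lower (-0.77). Of the tubulin modification and autoregulation genes, 11 could be counted by the minimum in cont., and 0 were called. Of 19 genes for microtubule-associated and motor proteins, 7 were called higher and 2 lower. Among them were Map1b (2.67), Stmn1, which encodes the dimer-binding protein stathmin (1.81), the kinesin gene Kif3a (1.46) and Map7 (-1.00). Stmn1 met the minimum of the filter in 1 cont. library and Map1b in 2, so their calls are not independent of the filter.

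Around the keratins, 3 of 12 other keratin genes were tested, and all 3, Krt7, Krt19 and Krt23, passed the filter through the Cre groups and are not counted. Krt7 and Krt19 are keratins of bile duct cells. Krt19 went from 1.76 ± 1.76 CPM in cont. to 12.5 ± 3.62 in Atg7-KO and 16.2 ± 6.85 in S351A livers (SD, n = 3). Of 12 keratin partners and other intermediate filament genes, 3 passed as higher and 1 as lower. Over all genes tested, these shares were 19.9% and 18.1%, so the 3 higher genes do not set this list apart. Vim, which encodes the vimentin of mesenchymal cells, was at 2.42, the periplakin gene Ppl at 1.11, the desmoglein gene Dsg2 at 0.90 and the epiplakin gene Eppk1 at -1.05. Of 9 Mallory-Denk body components and chaperones, 2 were called higher, near the 19.9% of all genes, and 0 lower. The 2 were the small heat shock protein gene Hspb1 (1.22) and the transglutaminase gene Tgm2 (1.32). Cryab, another small heat shock protein gene, is not counted and stood at 3.37 ± 0.981 CPM in cont. and 10.4 ± 2.9 in Atg7-KO livers (SD, n = 3). Sqstm1, which encodes p62, was at 0.38 with an edgeR adjusted p of 0.169. Of 19 actin cytoskeleton genes, 13 were called higher and 1 lower, with a median of 0.98 against -0.03 over all genes, and Tmsb10 (3.49), Tpm1 (2.47), Arpc1b (2.32) and Ezr (2.12) had the highest log2 fold changes among those named. Ezr met the minimum of the filter in 1 cont. library, so its call is not independent of the filter. In S351A against Atg7-KO, 0 genes of these 8 lists were called, against 0.00893% of all genes.

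**Figure D5:**
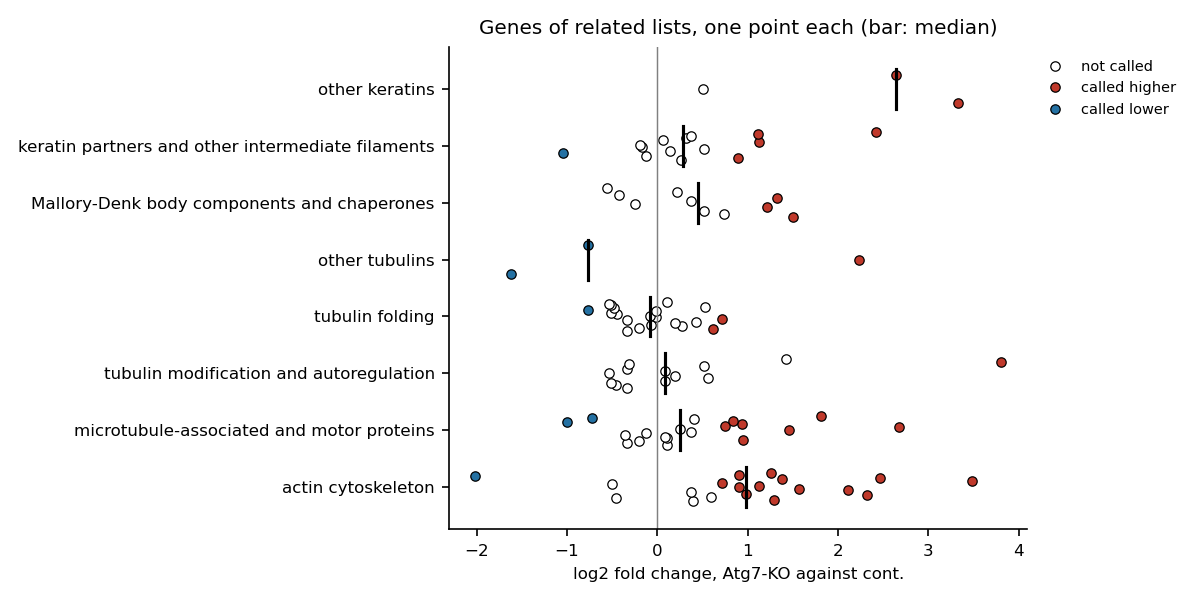
Log2 fold change in Atg7-KO against cont. of the tested genes in 8 lists around the keratins and tubulins, 1 point per gene, with the list median as a bar and called genes filled, genes below the minimum of the filter in cont. included. The actin cytoskeleton genes have a median of 0.98, while the tubulin folding genes lie around a median of -0.08.

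Markers of other cells moved beside these genes, and vimentin, actin-related genes, Tubb5 and Tubb6 are not particular to hepatocytes. Stellate and matrix markers, 9 in all, summed to 264 to 524 CPM in cont. livers, 1241 to 1711 in Atg7-KO livers and 1168 to 1659 in those of S351A, and 6 of the 8 counted were called higher in Atg7-KO. The 10 proliferation markers summed to 56.0 to 93.0 CPM in cont. livers, 154 to 188 in Atg7-KO livers and 132 to 143 in those of S351A, and 7 of the 9 tested passed the filter through the Cre groups, while of the other 2, 1 was called higher and 1 lower. The 10 macrophage markers summed to 224 to 337, 325 to 421 and 303 to 319 CPM in the same order, with 4 of the 9 counted called higher and 1 lower against cont. The 6 endothelial markers summed to 101 to 192, 132 to 158 and 111 to 151 CPM, with 1 called higher and 2 lower in Atg7-KO. Lymphocyte and neutrophil markers summed to 8.84 to 19.9 CPM in cont. livers, 47.0 to 63.2 in Atg7-KO livers and 24.0 to 40.7 in those of S351A, and 1 of 7, Ptprc, was tested and called higher in Atg7-KO. Erythroid markers summed to 320 to 892, 92.3 to 203 and 149 to 216 CPM, with 2 of the 3 tested called lower in Atg7-KO and Hba-a1 at 0 in all libraries. The part of these cells in the tubulin values was not tested.

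The genes whose log2 CPM most resembled that of Krt18, the keratin with the highest level, over the 9 livers were Mbtps2 (r = 0.949), Ppfibp2 (0.933), Arpc2 (0.923), Rae1 (0.922) and Mak16 (0.914). For Tubb2a, the tubulin with the highest level among the 8 followed here, they were Tmem184c (0.946), Eftud2 (0.933), Pklr (0.933), Impdh2 (0.920) and Ube2e3 (0.915). These are descriptions over 9 libraries that share their group differences and their depth.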

How the data were processed

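Poly(A) RNA was read as 75-base single-end reads. According to the study's methods and the submitters' processing notes, the authors used Trim Galore for trimming, STAR for mapping to mm10 and RSEM for quantification. Versions, annotation and strand setting are not given in the sources used here. The deposited values are expected counts, unscaled, and 4.40% to 7.75% of the values in a library were not whole. They were rounded. The labels name a column kit for extraction and the methods name a phenol reagent.

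Counts were analysed in R 4.3.3 with edgeR 4.0.16. filterByExpr (minimum count 10, minimum total 15) kept 11199 of 24411 genes, TMM factors scaled the libraries, and 1 quasi-likelihood model was fitted to all 9 libraries. A gene was called at a Benjamini-Hochberg adjusted p under 0.05 over all genes tested and a fold above 1.5. SEs are those implied by the F statistic, and 95% intervals use the t quantile at the degrees of freedom of that test. The study itself used DESeq2, which with limma-voom (limma 3.58.1) is among the alternatives, as are other scalings and filters, sex or replicate number as covariates, thinning, and leaving out each library. Correlations used a prior count of 2. The scripts were tested on simulated data. Positions come from GENCODE M21, and 23376 of the 24411 symbols matched.

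The members and lists were chosen with earlier results of these data known. All 10 members were named, and from each related list up to 4 called genes with the largest change in Atg7-KO whose higher group averaged 10 CPM or more, with Atg7 as the check of the deletion and Sqstm1, the p62 gene, beside it. Slc7a11, Ptprc, Krt7, Krt23, Epcam, Cftr, Spp1 and Sox9 were named after their values were seen. Replicates differed by 2.29 to 119 times counting error, so no library was counted as a copy of another. The p62 mutants without Cre and a further p62 allele were not analysed here.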

Additional observations from a re-analysis of the deposited data

How the results depend on the processing

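Of 586 log2 fold changes of members recomputed under an alternative, 539 kept their direction and side of the threshold, 10 lost a call, 16 gained one and 21 turned sign. Counts of members called are given over the genes other than Tubb2b, beside the share of all genes called. In Atg7-KO against cont., 4 higher and 1 lower became 7 and 0 with total library size (38.3% and 7.15% of all genes), 3 higher (17.1%) when at least 10 counts were required in every library (Tuba1a and Tubb6 being left out and Krt18 gained), 6 higher (33.7%) and 0 lower (8.72%) without the 20 genes with most counts, and 0 lower (11.6%) at a fold above 2. In S351A against cont., 1 higher and 1 lower became 4 higher (31.2%) with total library size, 3 higher (27.1%) without the 20 genes, 0 higher at a fold above 2 (13.2%), and 2 lower with no filter (10.7%) or with DESeq2 (12.4%). Leaving out 1 library gave 2 to 5 higher (15.5% to 20.1%) and 0 to 1 lower (12.6% to 18.3%) in Atg7-KO, and 0 to 1 higher (10.3% to 16.2%) and 1 to 2 lower (7.51% to 14.0%) in S351A against cont. In S351A against Atg7-KO every alternative called 0 members. Of the 10 members, 9 were tested after thinning and 8 with the 6 libraries of S351A and cont. alone, so these give no value for the rest.

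Signs turned for values near 0. In S351A against cont., Tuba1b (-0.01) became 0.0062 with RLE factors, 0.0019 with DESeq2, 0.0057 with limma-voom, 0.00066 after thinning, 0.046 with sex as a covariate, 0.052 under the minimum of 10 counts, 0.063 with the 6 libraries alone, 0.39 without the 20 genes and 0.49 with total library size. Tubb2a (-0.11) became 0.068 after thinning, 0.30 without the 20 genes and 0.40 with total library size. In Atg7-KO against cont., Tubb4b (-0.27) became 0.18 and 0.30 under the same scalings. Leaving out 1 library moved Tubb4b between -0.57 and 0.13 there, and in S351A against cont. Tuba1b between -0.26 and 0.14, Tubb2a between -0.33 and 0.16 and Krt18 between -0.033 and 0.34. Both scalings shift the fold changes against cont. of all genes together. The cause of the other changes was not tested.

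The replicate number as a block changed no call of a member (4 higher and 1 lower in Atg7-KO, against 20.5% higher and 18% lower over all genes, 0 in S351A against Atg7-KO, 1 higher and 1 lower in S351A against cont., against 16.6% higher and 13.8% lower). Same-numbered libraries correlated in their deviations from group means at -0.04 to 0.31, not all over 0.1, so the numbers were not taken as pairs. At 713835 to 792366 counts, the S351A libraries held 1 to 19 counts of Tuba1a, Tubb2b and Tubb6, and changes in these genes were detectable there only at this depth.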
